A study of Mus musculus with 48 samples.

Results

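The pL2_IL8 mouse line at 12 months of age was compared with the same line at 9 months. Both groups were found by the genotype and the endpoint age in the sample labels, and each held 3 arrays, so the comparison used 6 of the 48 arrays in the series. The study uses an interleukin-1 beta mouse model of Barrett oesophagus, the change of the lining at the lower oesophagus that raises the risk of adenocarcinoma, and asks among other things how overexpressed interleukin-8 (IL8) acts on it. Mice of both ages carried the pL2 (interleukin-1 beta) transgene and overexpressed IL8, were fed chow and were kept at the facility named MRI. Mice of the pL2 line without IL8 and wild-type (WT) mice, both at 12 months, on chow and at MRI, with 3 arrays each, are given as levels without a test. Total RNA came from the tissue of the squamocolumnar junction and cardia, where oesophagus meets stomach, and was hybridised to Affymetrix mouse gene arrays. The labels give neither the promoter nor the cells that express each transgene, nor the sex of the mice, nor whether tissue was pooled. Nothing in the labels says that the 3 arrays of an age came from separate animals. The p-values rest on the spread between arrays within groups, pooled over all 48 arrays of the series, and this spread may be in part technical. The other groups of the series were FXR lines, pL2 lines with altered Notch1 or Notch2, and pL2 and WT mice at the facility named Freising. Some Freising groups were fed a high-fat diet. The Notch lines also received tamoxifen and had varied endpoint ages.

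In stratified squamous lining, basal cells divide, suprabasal cells fill with keratins, and the outermost cells build a cornified envelope of cross-linked proteins and lipids. Mice have no direct counterpart of the IL8 gene. Their neutrophil attractants Cxcl1, Cxcl2, Cxcl3 and Cxcl5 act on the receptor Cxcr2, which human IL8 also binds, and interleukin-1 beta is a strong inducer of such chemokines. In the text, a level is an RMA signal and a difference is the level at 12 months minus that at 9 months, both on the log2 scale.

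The tissue in the label was present on all 6 arrays. The mean of 13 gastric pit cell markers lay between 11.27 and 11.59 at 12 months and between 11.38 and 11.60 at 9 months, and the mean of 12 acid-secreting parietal cell markers between 9.54 and 9.66 at 12 months and between 9.03 and 9.80 at 9 months. Array medians were between 4.05 and 4.10, and correlations between arrays of all entries were 0.979 to 0.984 within 12 months, 0.987 to 0.989 within 9 months and 0.972 to 0.983 between the ages. In bulk tissue, fewer cells of a type and less RNA per cell cannot be told apart.

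Late squamous genes were higher and neutrophil, chemokine and lymphocyte genes were lower at 12 months than at 9 months, yet no single gene passed the test. Of 15242 genes tested with limma, 0 (0.0%) had an adjusted p below 0.05, and the smallest adjusted p was 0.155. At an unadjusted limma p below 0.05, called nominal here, 605 genes (3.97%) were higher and 579 (3.8%) were lower at 12 months. Of these, 234 higher and 96 lower genes differed at least 2-fold. All 3 arrays at 12 months lay above all 3 at 9 months for 1328 genes (8.71%) and below them for 1387 (9.1%), and the median difference over all genes was -0.01. These percentages are the background for the counts within gene lists below. Weighting the arrays by their estimated quality in the same model gave 137 higher and 174 lower genes at an adjusted p below 0.05.

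The arrays at 12 months differed among themselves in transcripts of other tissues and in sex-linked transcripts. Xist, the RNA of the inactive X chromosome, was at 10.70, 4.30 and 5.76 at 12 months, against 11.55, 11.35 and 11.49 at 9 months. The Y-linked gene Uty was at 2.76, 7.22 and 7.33 at 12 months, against 2.33, 2.62 and 2.62 at 9 months. Replicates 2 and 3 at 12 months were thus low in Xist and high in Uty, while replicate 1 at 12 months was, like all arrays at 9 months, high in Xist and low in Uty. The 12-month arrays were therefore not all repeats of 1 RNA sample. Arrays of pL2 mice at 12 months also split, with Xist at 12.17, 4.92 and 3.83 and Uty at 3.08, 7.19 and 7.31. In WT mice at 12 months Xist was at 10.56, 10.87 and 10.90. The mean of 21 hepatocyte markers was 7.91, 4.19 and 6.16 at 12 months, against 4.21, 4.12 and 4.23 at 9 months. Albumin (Alb), the main plasma protein made by the liver, was at 11.95, 6.38 and 10.81 at 12 months, against 6.24, 6.30 and 6.15 at 9 months. The liver transcripts were high in replicates 1 and 3 at 12 months, and replicate 2 lay near the level of 9 months. High Alb was not particular to the IL8 line. It was at 10.96, 8.24 and 11.65 in pL2 mice and at 12.12, 6.71 and 6.70 in WT mice at 12 months. Of the 21 markers, 5 were nominally higher and none lower, with 0 higher without replicate 1 at 12 months and 14 without replicate 2 at 12 months.

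Airway markers, listed after the values had been seen, ran another way. Scgb1a1, the secretory protein of airway club cells, was at 4.74, 11.08 and 7.82 at 12 months, against 3.83, 3.38 and 4.23 at 9 months. It was at 9.08, 5.87 and 8.64 in WT mice and at 3.94, 4.17 and 5.68 in pL2 mice at 12 months. Bpifa1, a secreted airway defence protein, was at 2.32, 6.83 and 3.03 at 12 months, against 1.97, 1.77 and 2.0 at 9 months. The cilium-associated genes Cdhr3 (2.90, 4.66 and 4.15 at 12 months, against 2.81, 2.99 and 2.69 at 9 months) and Cfap57 (4.85, 5.07 and 4.11 at 12 months, against 3.56, 3.64 and 3.51 at 9 months) were among the smallest p-values in the higher direction. For Scgb1a1, Bpifa1, Cdhr3 and Cfap57, replicate 2 at 12 months was the highest of the 6 arrays. Among the 16 group means of the series, the 9-month group ranked 16, the lowest, for Scgb1a1, Bpifa1, Cdhr3 and Cfap57. In the mean of the airway list the 12-month group ranked 1 and the 9-month group 14. Of 13 tested airway markers, 6 were nominally higher and none lower, with a median of 0.81, or 0.37 without replicate 2 at 12 months. Replicate 2 at 12 months also had the highest mean of the 11 mast cell markers, 7.22, against 5.84 and 5.86 in replicates 1 and 3 at 12 months and 5.72 to 6.13 at 9 months. The part of these transcripts in the results below was not tested beyond the fits named there.

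**Figure D1:**
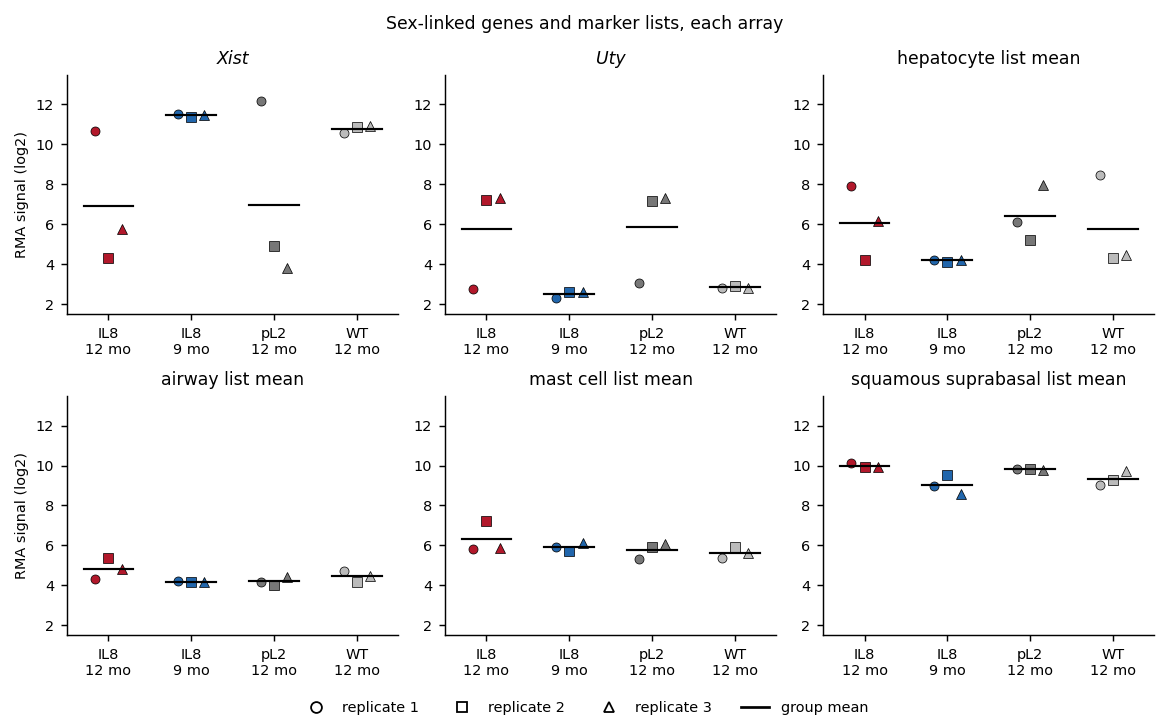
Level of Xist, Uty and 4 marker list means (RMA signal, log2, y axis) on each array (points, shape by replicate) of the IL8 line at 12 and 9 months and of pL2 and WT mice at 12 months; bars are group means. Xist splits the 12-month arrays into 10.70 against 4.30 and 5.76, and the hepatocyte mean into 7.91 and 6.16 against 4.19, while the 9-month arrays lie close together in both.

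Transcripts of the outermost squamous layer had, of the squamous lists, the highest median difference. Of the 21 tested members of the cornified envelope list (26 listed, 24 on the array), 17 were nominally higher at 12 months and none lower. All 3 arrays at 12 months lay above all 3 at 9 months for 20 of the 21, and the median difference was 2.02. Flg (filaggrin, which bundles keratin filaments) was at 9.23, 9.38 and 7.63 at 12 months, against 3.91, 6.28 and 4.39 at 9 months. The groups did not overlap, replicate 3 was the lowest at 12 months, and replicate 2 was the highest at 9 months. The difference was 3.89 ± 1.14 (SE), a 14.8-fold ratio, with an adjusted limma p of 0.315. In pL2 mice at 12 months Flg was at 8.43, 7.76 and 6.07, and in WT mice at 12 months at 9.20, 9.05 and 9.79.

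Hrnr (hornerin, a filaggrin-like protein) was at 8.60, 8.70 and 7.39 at 12 months, against 4.72, 6.49 and 4.87 at 9 months. Asprv1, a protease that processes filaggrin, was at 11.62, 11.81 and 10.54 at 12 months, against 8.61, 9.75 and 8.20 at 9 months. Both genes had the same order of arrays as Flg in the extremes, with replicate 3 lowest at 12 months and replicate 2 highest at 9 months, and no overlap between the ages. Their differences were 2.87 ± 1.06 and 2.47 ± 0.81 (adjusted limma p of 0.441 and 0.371). Among the late cornified envelope (Lce) genes, small structural proteins of the envelope, 13 of 17 tested were nominally higher, and all 17 had non-overlapping groups with 12 months above. The count was 4 without replicate 2 at 12 months, 8 without replicate 1 at 12 months, 5 without replicate 3 at 9 months and 6 without replicate 1 at 9 months, while all 17 differences were positive in each of these and the median ran from 1.58 to 2.11 over the arrays left out. Lce1b was at 8.41, 8.60 and 7.17 at 12 months, against 4.69, 6.27 and 4.68 at 9 months. Members of this family resemble one another in sequence, and how far their probe sets share signal was not tested.

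Most of these genes lie side by side in the epidermal differentiation complex on chromosome 3. The RefSeq table holds 70 protein-coding genes there from S100a1 to S100a10, of which 52 were tested, a set taken after the values had been seen. Of the 52, 24 were nominally higher and none lower, with a median difference of 1.04. The count was 9 without replicate 2 at 12 months, 14 without replicate 1 at 12 months, 10 without replicate 3 at 9 months and 11 without replicate 1 at 9 months, and the median over the arrays left out ran from 0.88 to 1.26. With the sex-linked score in the model, 8 genes of the locus were nominally higher and 1 lower, with a median of 0.90, and 3 Lce genes were nominally higher, with a median of 1.37. Counts within the locus are given by family, and no test was made between families. The 10 tested small proline-rich (Sprr) genes, envelope proteins that are also induced in stressed epithelium, held no nominal difference in either direction, and their differences ran between 0.28 and 1.14. Of 13 tested S100a genes, which encode calcium-binding proteins, 3 were nominally higher, with a median of -0.08. The predicted gene 2310050C09Rik, between Lce1l and Lce3a, had the widest difference in the locus, 4.12 ± 1.22. The envelope genes Lor (loricrin) and Ivl (involucrin) had differences of 2.15 ± 0.94 and 1.5 ± 0.59, both with non-overlapping groups.

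**Figure D2:**
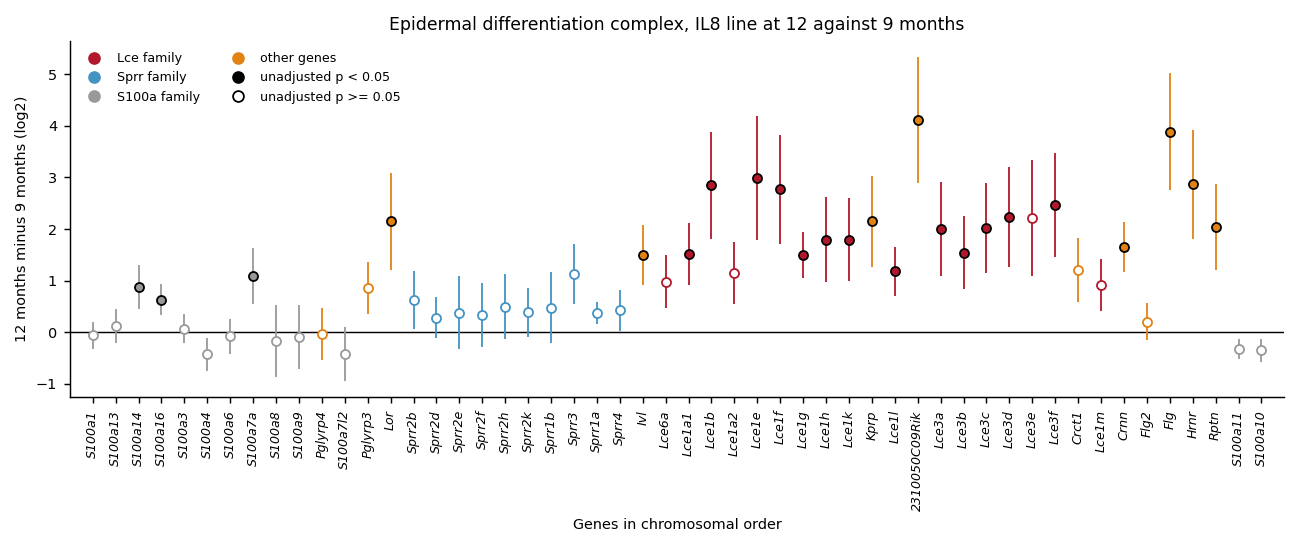
Difference at 12 months minus 9 months (log2, y axis, with SE) of the 52 tested genes of the epidermal differentiation complex in chromosomal order (x axis, gene order only), coloured by family; filled points have an unadjusted limma p below 0.05. The 17 Lce genes lie between 0.91 and 2.99, and the 10 Sprr genes between 0.28 and 1.14.

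The promoters of 2 neighbours in this locus, Flg and Hrnr, and of 3 genes that were lower at 12 months, Cxcl2, Ngp and Mmp8, are shown because these genes had nominal differences in opposite directions. The windows are from RefSeq (GRCm38.p6) and hold 250 bases before and 50 after the start of transcription. They lie at chr3:93273296-93273595 (Flg), chr3:93319499-93319798 (Hrnr), chr5:90903649-90903948 (Cxcl2), chr9:110419558-110419857 (Ngp) and chr9:7558179-7558478 (Mmp8), all on the plus strand. Capitals mark matches on either strand to any of 3 motifs: TGANTCA of AP-1, GGGNNTTTC of NF-kB and TTNNGCAA of C/EBP.
Flg: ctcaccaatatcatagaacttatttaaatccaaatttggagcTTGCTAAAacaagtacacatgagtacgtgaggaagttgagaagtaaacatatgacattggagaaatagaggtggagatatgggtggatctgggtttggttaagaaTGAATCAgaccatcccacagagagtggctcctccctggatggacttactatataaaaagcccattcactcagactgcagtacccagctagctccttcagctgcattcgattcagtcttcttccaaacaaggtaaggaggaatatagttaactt
Hrnr: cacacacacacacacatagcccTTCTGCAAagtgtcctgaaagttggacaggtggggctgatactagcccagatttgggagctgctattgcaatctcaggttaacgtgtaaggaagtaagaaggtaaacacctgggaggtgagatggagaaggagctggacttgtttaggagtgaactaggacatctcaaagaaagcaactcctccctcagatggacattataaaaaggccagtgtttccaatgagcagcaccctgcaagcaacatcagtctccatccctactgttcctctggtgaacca
Cxcl2: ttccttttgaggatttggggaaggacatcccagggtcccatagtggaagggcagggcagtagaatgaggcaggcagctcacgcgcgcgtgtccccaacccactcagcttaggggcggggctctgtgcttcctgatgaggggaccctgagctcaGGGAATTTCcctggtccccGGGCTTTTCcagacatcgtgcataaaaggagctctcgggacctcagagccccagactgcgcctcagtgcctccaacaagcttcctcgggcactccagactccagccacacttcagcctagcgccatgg
Ngp: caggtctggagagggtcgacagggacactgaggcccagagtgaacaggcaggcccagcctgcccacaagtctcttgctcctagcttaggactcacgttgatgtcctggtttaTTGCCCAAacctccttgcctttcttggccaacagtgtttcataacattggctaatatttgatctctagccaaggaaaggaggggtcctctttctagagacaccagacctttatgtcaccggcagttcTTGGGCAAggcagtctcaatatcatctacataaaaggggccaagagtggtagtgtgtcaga
Mmp8: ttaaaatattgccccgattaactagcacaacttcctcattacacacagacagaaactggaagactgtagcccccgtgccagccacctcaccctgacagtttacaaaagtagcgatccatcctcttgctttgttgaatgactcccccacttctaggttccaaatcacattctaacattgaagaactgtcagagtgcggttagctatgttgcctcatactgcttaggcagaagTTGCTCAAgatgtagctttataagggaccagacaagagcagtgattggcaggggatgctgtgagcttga
The Flg window had 1 AP-1 match, TGAATCA, starting at base -103 (counted from the start site), and 1 C/EBP match, TTGCTAAA. The Hrnr window had 1 C/EBP match, TTCTGCAA. The Cxcl2 window had 2 NF-kB matches, GGGAATTTC and GGGCTTTTC, starting at bases -97 and -78. The Ngp window had 2 C/EBP matches, TTGCCCAA and TTGGGCAA, and the Mmp8 window had 1, TTGCTCAA. No match of 1 motif overlapped one of another in these windows. Of 27025 genes with a window, taking the first window of each, 7.93% had an AP-1 match, 4.46% an NF-kB match and 10.8% a C/EBP match. Of 22 cornified envelope genes with a window, 5 had an AP-1 match, 4 a C/EBP match and 0 an NF-kB match. Of 9 genes of the CXCR2 list, 4 had an NF-kB match, 1 an AP-1 match and 1 a C/EBP match. Of 23 neutrophil genes, 8 had a C/EBP match, 2 an NF-kB match and 0 an AP-1 match. A match is a description of these letters and not a binding site.

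Keratins and enzymes of the suprabasal layers were also higher. Of 25 tested suprabasal genes, 14 were nominally higher and none lower, with a median of 0.77, and 15 had non-overlapping groups with 12 months above. Krt1, the keratin of cornifying cells, was at 12.72, 12.63 and 11.31 at 12 months, against 7.94, 10.20 and 8.30 at 9 months. Krt13, the keratin of the moist lining of oesophagus and mouth, was at 11.63, 11.37 and 11.40 at 12 months, against 9.98, 10.81 and 9.19 at 9 months. Tgm3, a transglutaminase that cross-links the envelope, was at 10.01, 9.92 and 9.19 at 12 months, against 6.04, 7.58 and 6.39 at 9 months. None of the 3 genes had overlapping groups, and in each the highest array at 9 months was replicate 2. The differences were 3.41 ± 0.99 for Krt1, 1.47 ± 0.36 for Krt13 and 3.04 ± 0.94 for Tgm3 (adjusted limma p of 0.314, 0.272 and 0.334).

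Of the stress keratins, Krt16 and Krt6a were not nominal. Krt16, which stressed and rapidly dividing squamous cells make, was at 11.03, 10.46 and 11.19 at 12 months, against 10.81, 11.42 and 10.45 at 9 months. Krt6a, another stress keratin, was at 11.15, 10.77 and 11.67 at 12 months, against 10.96, 11.47 and 10.43 at 9 months. The ages overlapped for both genes, with differences of 0.01 ± 0.70 and 0.24 ± 0.54. In WT mice at 12 months both genes were lower, Krt16 at 8.11, 9.79 and 9.66 and Krt6a at 8.05, 8.99 and 9.45. Of 34 tested keratin genes in all, 9 were nominally higher and none lower. They include Krt84, a keratin of hair and tongue (4.99, 4.31 and 4.31 at 12 months, against 2.82, 2.94 and 2.92 at 9 months), and Krt80 (8.39, 8.28 and 7.86 at 12 months, against 6.37, 6.97 and 5.57 at 9 months). The 12 tested basal cell genes held no nominal difference, with a median of 0.01. Sprr3, an oesophageal small proline-rich protein, was at 9.84, 10.21 and 9.79 at 12 months, against 8.85, 9.68 and 7.91 at 9 months, and was not nominal (adjusted limma p of 0.669).

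**Figure D3:**
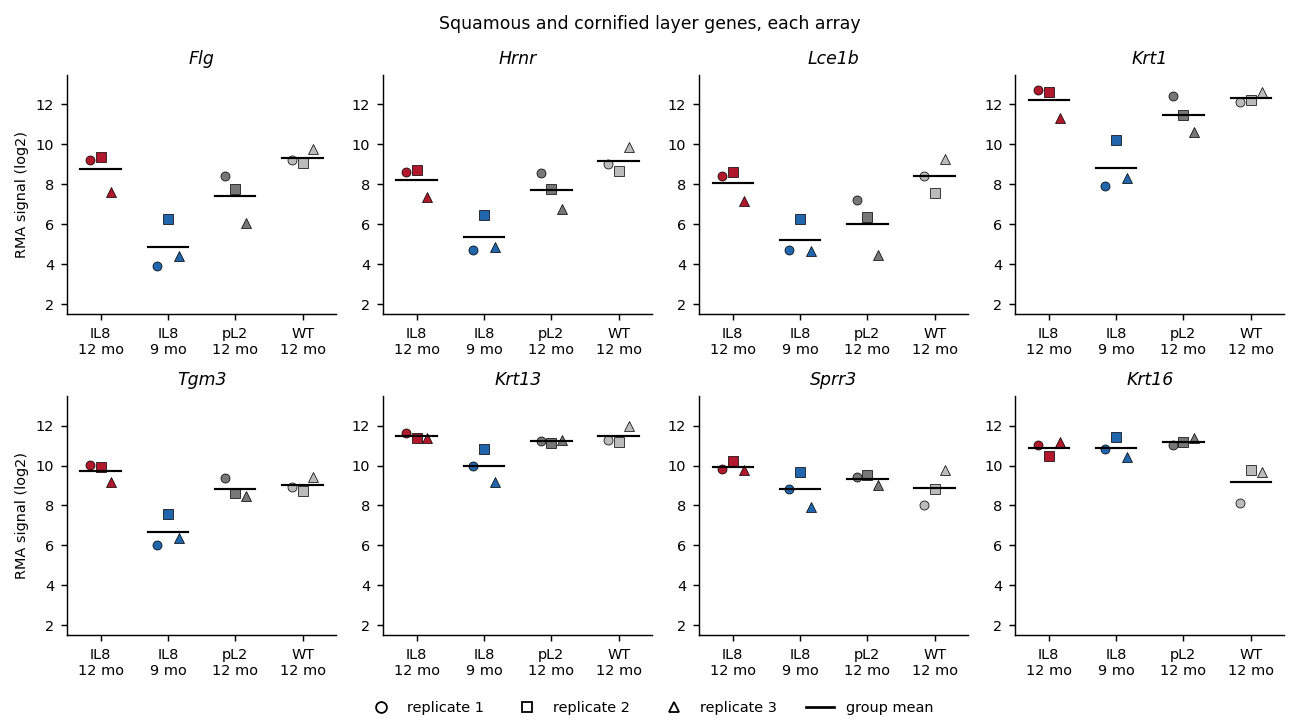
Level (RMA signal, log2, y axis) of 8 squamous genes on each array (points, shape by replicate) of the IL8 line at 12 and 9 months and of pL2 and WT mice at 12 months; bars are group means. Flg, Hrnr, Lce1b, Krt1, Tgm3 and Krt13 have all 12-month arrays of the IL8 line above its 9-month arrays, by 3.89 for Flg on average, whereas Krt16 overlaps between the ages.

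Genes for the lipid barrier and for the shedding of surface cells were among the higher ones as well. Of 17 tested lipid barrier genes, 12 were nominally higher and none lower, with a median of 1.42. Sdr9c7, an enzyme of barrier lipid maturation, was at 10.06, 9.66 and 9.52 at 12 months, against 8.41, 8.84 and 8.07 at 9 months. Abca12, which loads lipids into secretory granules, was at 10.61, 10.75 and 10.11 at 12 months, against 8.72, 9.52 and 8.50 at 9 months. The ceramidase Acer1 was at 8.09, 7.87 and 7.47 at 12 months, against 6.32, 6.53 and 6.13 at 9 months. The ages did not overlap for these 3 genes. Of 18 tested squamous proteases and inhibitors, 10 were nominally higher and none lower, with a median of 1.11. Klk7, a protease that cuts the junctions of surface cells, was at 9.15, 8.90 and 8.03 at 12 months, against 6.09, 6.95 and 5.72 at 9 months. Spink7, an oesophageal inhibitor of serine proteases, was at 4.13, 4.67 and 4.55 at 12 months, against 3.28, 3.27 and 3.10 at 9 months.

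Some genes of secreted proteins had wide differences or small p-values. Il1f5, the antagonist of the interleukin-36 receptor, was at 9.58, 9.90 and 8.28 at 12 months, against 5.57, 7.03 and 5.27 at 9 months. Slurp2, a secreted Ly6-family protein, was at 9.96, 9.76 and 8.56 at 12 months, against 5.62, 7.42 and 5.82 at 9 months. Calcb, the beta form of the neuropeptide CGRP, was at 8.15, 7.62 and 7.06 at 12 months, against 5.80, 6.16 and 5.30 at 9 months. No overlap between the ages was seen in these 3 genes, and Calcb led the genes that were higher in order of p (difference 1.86 ± 0.42, adjusted limma p of 0.272). The proton channel gene Otop2 was at 7.84, 8.03 and 7.67 at 12 months, against 6.09, 6.45 and 6.18 at 9 months. Psapl1 was at 9.91, 9.45 and 9.91 at 12 months, against 8.16, 8.37 and 8.91 at 9 months. Otop2 and Psapl1 had the same adjusted limma p of 0.272, with Svip, Coq6 and Krt13 among the genes between them and Calcb in order of p. The difference of Tmem45a2 was 3.82 ± 1.24, with non-overlapping groups. Outside the naming rule, the non-gastric proton pump gene Atp12a was chosen after its values were seen: it was at 8.45, 7.54 and 6.47 at 12 months, against 5.45, 5.50 and 4.36 at 9 months, and at 3.77 to 5.09 in WT mice.

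Among the 16 group means of the series, the 9-month group ranked 14 in the mean of the cornified envelope, suprabasal and lipid barrier lists, 13 in the proteases and 12 in the Lce genes. The 12-month group ranked 5, 4, 3, 1 and 6 in the same order of lists. For single genes, Flg, Hrnr, Lce1b, Tgm3, Il1f5 and Krt13 were lowest at 9 months in the IL8 line, Krt1, Asprv1 and Krt80 ranked 15, Sprr3 ranked 14 and Atp12a ranked 12. The 12-month group ranked 8 for Flg, Hrnr, Lce1b, Krt1 and Krt13, and 4 for Tgm3. For Krt84 and Sdr9c7 the 12-month group ranked 1. No test was made between neighbours in these orders. The 16 groups differ in genotype, and some of them in diet, facility, tamoxifen treatment and age.

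The count of cornified envelope genes depended on single arrays. With replicate 1 as the only 12-month array, which matched the 9-month arrays in Xist, 4 of 21 were nominally higher, with a median of 2.13, and all 21 differences were positive. With replicate 2 as the only 12-month array, which matched them in hepatocyte transcripts, 6 of 21 were nominally higher, with a median of 2.31. With the sex-linked score in the model the count was 4, with a median of 1.52 and all 21 differences positive. Leaving out each array in turn gave between 6 and 19, with 6 without replicate 3 at 9 months, 7 without replicate 2 at 12 months, 10 without replicate 1 at 12 months and 9 without replicate 1 at 9 months. The median ran from 1.59 to 2.52 over these fits, and all 21 differences were positive in each. Without replicate 3 at 9 months the suprabasal count was 4 with a median of 0.67, the lipid barrier count 5 with a median of 1.12 and the protease count 3 with a median of 0.84. The suprabasal count was 8 without replicate 1 at 12 months, and the protease count was 6 without replicate 1 or 2 at 12 months or replicate 1 at 9 months. With the mean of the suprabasal list in the model, 0 of 21 cornified envelope genes were nominal. Their median was 0.24, with 16 positive and 5 negative differences. The lipid barrier median was then 0.15 with 0 nominal, and the protease median -0.15 with 0 higher and 2 lower. By construction this fit removes what these lists share with the suprabasal list.

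Neutrophil genes were lower at 12 months. All 20 tested neutrophil genes had a negative difference, 11 of them were nominally lower, and 13 had non-overlapping groups with 12 months below. The median was -1.12. Ngp (neutrophilic granule protein) was at 4.80, 4.51 and 5.49 at 12 months, against 6.56, 8.20 and 6.35 at 9 months. Mmp8, the neutrophil collagenase, was at 3.77, 5.23 and 6.06 at 12 months, against 7.22, 8.11 and 7.56 at 9 months. The ages did not overlap for either gene, and replicate 2 was the highest at 9 months in both. The differences were -2.10 ± 0.54 and -2.61 ± 0.69 (adjusted limma p of 0.272 and 0.274). In pL2 mice at 12 months Mmp8 was at 3.47, 5.29 and 7.25, and in WT mice at 3.22, 3.42 and 3.34.

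Further genes of granules and of the neutrophil surface ran the same way. Retnlg, a resistin-like secreted protein, was at 5.11, 7.39 and 7.63 at 12 months, against 8.59, 9.87 and 9.27 at 9 months. Mmp9, a gelatinase, was at 6.39, 7.0 and 7.11 at 12 months, against 8.56, 8.76 and 8.26 at 9 months. Fpr2, a receptor for formylated peptides, was at 2.96, 3.69 and 3.67 at 12 months, against 4.48, 6.27 and 5.43 at 9 months. Replicate 1 was the lowest 12-month array in all 3. Ifitm6 and Sirpb1c, which were not in the list, had differences of -2.84 ± 0.77 and -1.97 ± 0.51. Other neutrophil genes stood level. S100a8, a subunit of calprotectin that squamous cells also make, was at 10.30, 9.73 and 10.21 at 12 months, against 10.11, 10.80 and 9.84 at 9 months. Its partner S100a9 was at 8.47, 8.36 and 8.52 at 12 months, against 8.73, 8.82 and 8.07 at 9 months.

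Several genes of the neutrophil chemokine system were nominally lower. Of 12 tested genes of the CXCR2 list, 4 were nominally lower and none higher, and 7 had non-overlapping groups with 12 months below. The median was -0.51. Cxcl5 was at 7.60, 7.65 and 7.70 at 12 months, against 9.20, 9.65 and 8.99 at 9 months. The 12-month arrays stood close together and all lay below the 9-month arrays. The difference was -1.63 ± 0.69, a 3.09-fold higher level at 9 months (adjusted limma p of 0.546). In pL2 mice at 12 months Cxcl5 was at 7.62, 9.77 and 9.88, and in WT mice at 4.88, 7.26 and 4.90. Of the pL2 arrays, 1 thus lay among the 12-month arrays of the IL8 line and 2 lay above all its 9-month arrays.

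Cxcl2 was at 4.79, 5.89 and 6.85 at 12 months, against 7.43, 7.76 and 6.92 at 9 months. Cxcl1 was at 4.22, 3.51 and 3.18 at 12 months, against 4.91, 5.37 and 3.82 at 9 months. Cxcl3 was at 3.56, 3.52 and 5.29 at 12 months, against 6.58, 5.90 and 5.44 at 9 months. The ages overlapped for Cxcl1 but not for Cxcl2 or Cxcl3, and Cxcl3 missed the nominal threshold (adjusted limma p of 0.669). Ackr1, an endothelial receptor that binds and presents chemokines, was at 5.06, 5.53 and 5.38 at 12 months, against 5.91, 6.14 and 6.28 at 9 months. Cxcr2, the signalling receptor, was at 7.43, 7.56 and 7.31 at 12 months, against 7.52, 7.95 and 7.48 at 9 months. Cxcr1 was at 5.27, 4.45 and 4.73 at 12 months, against 4.95, 4.16 and 4.38 at 9 months. Both receptors overlapped between the ages, with differences of -0.21 ± 0.49 and 0.32 ± 0.47.

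Il1b, which the array cannot split into the mouse gene and a transgene because the probe location was not stated, was at 5.32, 7.72 and 7.46 at 12 months, against 7.87, 8.33 and 7.83 at 9 months. The ages did not overlap, replicate 1 at 12 months lay more than 2 below the other arrays, and the difference was -1.17 ± 0.65 (not nominal, adjusted limma p of 0.724). Il1a, the related alarm cytokine stored in squamous cells, was at 8.75, 8.26 and 6.98 at 12 months, against 6.54, 7.11 and 5.52 at 9 months. It was the only nominally higher gene among 25 tested genes of interleukin-1 and NF-kB signalling, of which 7 were nominally lower, with a median of -0.39. Without replicate 2 at 9 months none of the 25 was nominally lower and 3 were higher, and without replicate 1 at 12 months 3 were lower and none higher. The number lower was 4 without replicate 3 at 12 months or replicate 1 at 9 months, and 1 with the sex-linked score in the model. The median ran from -0.47 to -0.28 over the arrays left out. Tnfaip3, the NF-kB feedback inhibitor A20, was at 6.49, 6.33 and 6.17 at 12 months, against 7.05, 7.32 and 6.80 at 9 months. The list shares Cxcl1, Cxcl2 and Cxcl5 with the CXCR2 list.

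**Figure D4:**
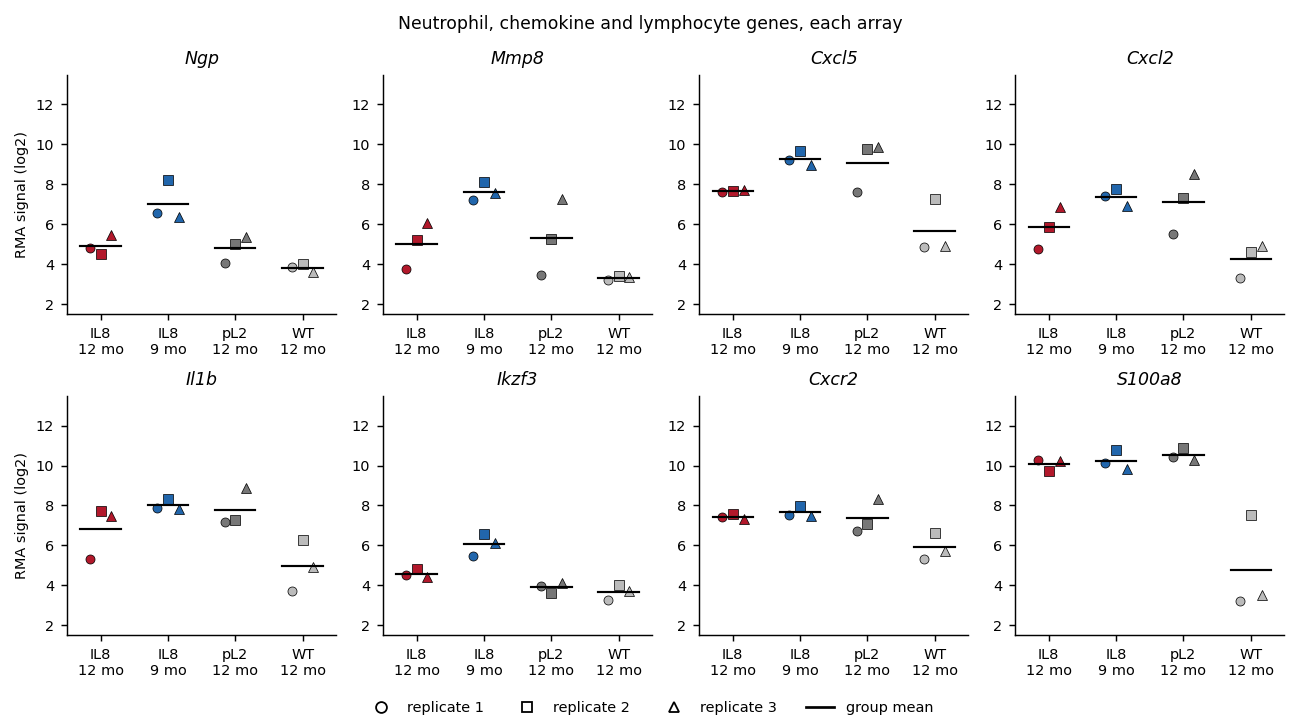
Level (RMA signal, log2, y axis) of 8 immune genes on each array (points, shape by replicate) of the IL8 line at 12 and 9 months and of pL2 and WT mice at 12 months; bars are group means. The 12-month arrays of the IL8 line lie below its 9-month arrays for Ngp, Mmp8, Cxcl5, Cxcl2, Il1b and Ikzf3, while Cxcr2 and S100a8 overlap.

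The smallest p-values of the comparison belonged to genes that were lower at 12 months, among them a lymphocyte regulator. Slc36a2, an amino acid transporter gene, was at 4.81, 5.23 and 4.48 at 12 months, against 5.66, 6.03 and 6.06 at 9 months. Ikzf3 (Aiolos, a transcription factor of lymphocytes) was at 4.50, 4.83 and 4.42 at 12 months, against 5.49, 6.57 and 6.11 at 9 months. Ly6a2, a Ly6-family gene, was at 4.33, 4.37 and 5.23 at 12 months, against 5.99, 7.0 and 6.4 at 9 months. These 3 genes shared the adjusted limma p of 0.155, with differences of -1.08 ± 0.22, -1.47 ± 0.30 and -1.82 ± 0.38. The ages did not overlap in any of them. Without replicate 2 at 12 months, Slc36a2 passed the test with an adjusted limma p of 0.0322.

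Cxcl13, which draws B cells into lymphoid follicles, was at 5.54, 5.36 and 4.67 at 12 months, against 6.00, 8.46 and 9.17 at 9 months. Madcam1, the adhesion molecule of gut vessels that lymphocytes enter by, was at 4.39, 4.03 and 4.34 at 12 months, against 5.46, 4.98 and 4.98 at 9 months. Icos, a costimulator of T cells, was at 5.57, 5.48 and 5.45 at 12 months, against 5.78, 6.71 and 6.77 at 9 months. In a list of 11 tested follicle genes chosen after the values were seen, 5 were nominally lower and none higher, among them these 3 and Ikzf3. Because members were picked with their values known, this count is a description and no separate support. Icos is also counted in the T and NK cell list. Of 12 tested T and NK cell genes, 3 were nominally lower (median -0.51), and of 9 tested B and plasma cell genes, 2 were nominally lower (median -0.76) and 7 had non-overlapping groups with 12 months below. The T and NK count was 1 without replicate 2 or 3 at 9 months. The B and plasma count was 0 without replicate 2 or 3 at 12 months, without replicate 1 or 3 at 9 months and with the sex-linked score, with medians from -0.85 to -0.61 over the arrays left out. Klhl6 and Samsn1, both known from B cell signalling, had differences of -0.96 ± 0.24 and -0.91 ± 0.21, with non-overlapping groups. Mzb1, a plasma cell chaperone, was at 5.07, 4.72 and 4.72 at 12 months, against 5.84, 5.49 and 6.02 at 9 months. Among 13 tested immunoglobulin kappa variable segments, 12 had a negative difference and 2 were nominally lower. Igkv4-59 was at 5.65, 5.59 and 7.23 at 12 months, against 8.73, 10.67 and 7.97 at 9 months. Such segments are alike in sequence and used unequally by each mouse, so single segments are uncertain.

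Some macrophage genes were also nominally lower. Of 12 tested macrophage genes, 5 were nominally lower and none higher, with a median of -0.49. The count was 2 without replicate 1 at 12 months or replicate 2 or 3 at 9 months and 3 without replicate 3 at 12 months, with medians from -0.62 to -0.45 over the arrays left out. Csf1r, the receptor for the macrophage growth factor, was at 7.26, 7.44 and 7.22 at 12 months, against 7.93, 8.20 and 7.82 at 9 months. Msr1, a scavenger receptor outside the list, was at 3.90, 4.48 and 4.00 at 12 months, against 5.23, 5.14 and 4.90 at 9 months. Alox5ap, which supplies arachidonic acid for leukotrienes, was at 7.17, 7.51 and 7.79 at 12 months, against 8.52, 8.92 and 8.47 at 9 months. The ages did not overlap for these 3 genes, and a second, dimmer entry of Alox5ap had a difference of -0.62, against -1.15 for the entry used. All 10 tested MHC class II genes had a negative difference, 1 was nominally lower, and 6 had non-overlapping groups with 12 months below. Of 10 tested mast cell genes, 6 had positive and 4 had negative differences, and 2 were nominally higher. Without replicate 2 at 12 months none was, and the median was -0.19 against 0.25 with all arrays. Cma1, a mast cell chymase, was at 4.63, 5.88 and 4.07 at 12 months, against 3.74, 3.74 and 3.70 at 9 months.

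Among genes of matrix remodelling, 7 of 19 tested were nominally lower and none higher, with a median of -0.47. The count was 4 without replicate 1 at 12 months or replicate 2 at 9 months, with medians of -0.49 and -0.35. Lox, which cross-links collagen, was at 5.23, 5.25 and 6.15 at 12 months, against 6.14, 7.06 and 7.12 at 9 months. Mmp3 (stromelysin) was at 4.50, 3.87 and 5.03 at 12 months, against 5.96, 6.67 and 6.02 at 9 months. Mmp10, a related stromelysin, was at 4.47, 4.57 and 6.20 at 12 months, against 7.12, 7.37 and 6.45 at 9 months. Replicate 3 was the highest 12-month array in all 3 genes, and for Lox it overlapped the 9-month range. Timp1, an inhibitor of such proteases, had a difference of -1.09 ± 0.39, with non-overlapping groups. All 16 tested fibroblast and matrix genes had a negative difference, 2 were nominally lower, and the median was -0.39. Amtn (amelotin, known from enamel formation) was at 6.11, 2.91 and 4.82 at 12 months, against 7.08, 7.44 and 7.51 at 9 months.

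Among the 16 group means, the 9-month group ranked 1 in the mean of the neutrophil, CXCR2, interleukin-1 and NF-kB, macrophage, T and NK, B and plasma cell and remodelling lists. It also ranked 1 for Ngp, Mmp8, Retnlg, Cxcl1, Cxcl2, Cxcl3, Cxcl5, Il1b, Ikzf3, Cxcl13, Csf1r, Lox and Mmp3. Some of these first ranks were narrow. Mice of pL2 on a high-fat diet at Freising came next for the interleukin-1 and NF-kB list (6.76 against 6.79) and the T and NK list (4.43 against 4.57). The next group lay further below for the neutrophil list (6.30 against 7.03). Single arrays of other groups reached 7.25 in the interleukin-1 and NF-kB list, where the highest 9-month array was at 7.20. The pL2 mice at 12 months at MRI came next for Cxcl3 (5.96 against 5.97), Cxcl5 (9.09 against 9.28), Cxcl2 (7.12 against 7.37) and Il1b (7.77 against 8.01). The Notch line labelled pL2_Lgr5_Notch2IC_LacZ came next for Cxcl1 (4.67 against 4.70). The gap was wider for Ngp (5.16 against 7.04). Neighbouring ranks were not tested. The 12-month group ranked 3 for Ngp, 5 for Mmp8, 8 for Cxcl5, 7 for Il1b and 4 for Ikzf3. The neutrophil count was 11 of 20 with replicate 1 as the only 12-month array (median -1.51) and 4 of 20 with replicate 2 (median -0.66), and without replicate 1 at 12 months it was 6 (median -0.85). With the sex-linked score in the model it was 12. The CXCR2 count was 2 with replicate 1 alone (median -0.83) and 0 with replicate 2 alone (median -0.49), with 11 of 12 differences negative in each. It was 1 without replicate 2 at 9 months (median -0.57), 2 without replicate 2 at 12 months (median -0.53) and 2 without replicate 1 at 9 months (median -0.46).

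**Figure D5:**
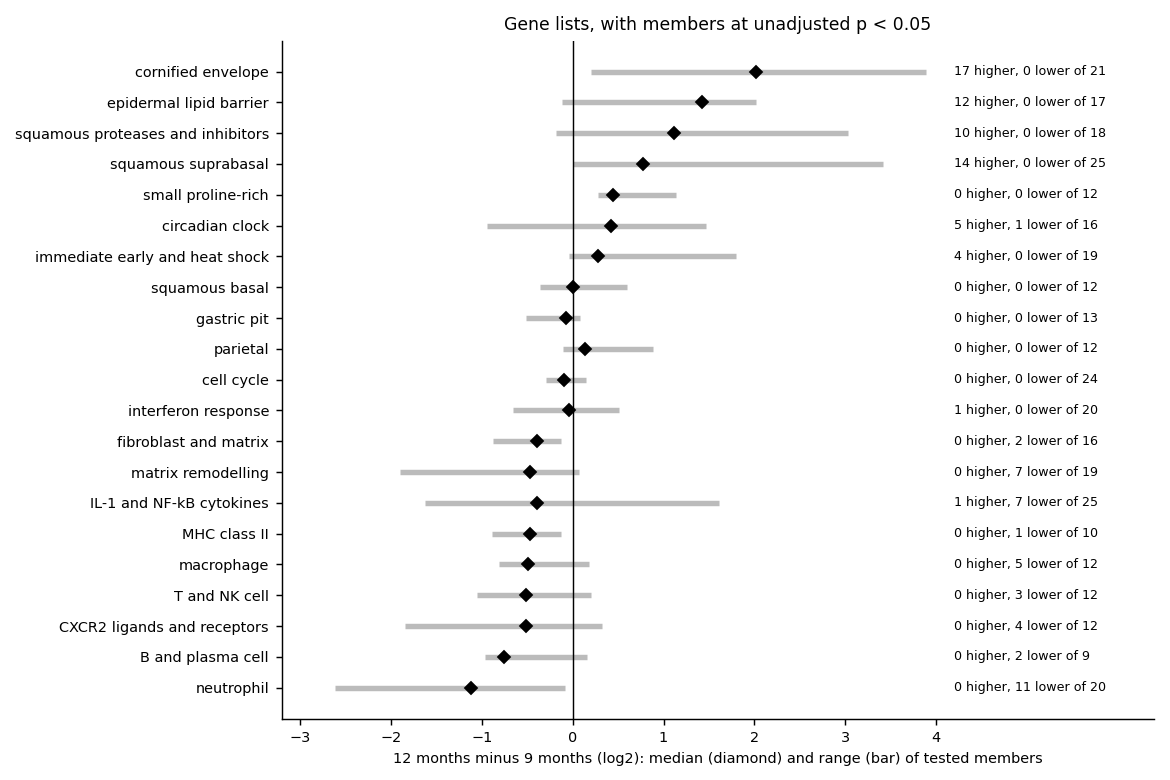
Differences at 12 months minus 9 months (log2, x axis) of 21 gene lists (y axis): diamonds are medians and bars the range of tested members, with the number of members at an unadjusted limma p below 0.05 in each direction at the right. The cornified envelope list has the highest median, 2.02, and the neutrophil list the lowest, -1.12, while the gastric pit, parietal, basal and cell cycle lists lie near 0.

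Outside these groups, genes of the circadian clock held both directions, with 5 of 16 tested nominally higher and 1 lower. These counts were 1 and 0 without replicate 1 at 12 months, 1 and 1 without replicate 3 at 9 months, 2 and 1 without replicate 2 at 9 months and 5 and 3 without replicate 1 at 9 months. Bhlhe41, a clock repressor, was at 5.82, 5.45 and 5.49 at 12 months, against 4.54, 4.09 and 4.15 at 9 months. Dbp, an output gene of the clock, was at 8.26, 7.17 and 7.09 at 12 months, against 7.50, 5.21 and 5.40 at 9 months. Arntl (BMAL1), which peaks in the opposite phase to Dbp, was at 6.39, 6.82 and 7.34 at 12 months, against 7.29, 8.09 and 8.0 at 9 months. The labels give no hour of sampling, and its part in these values was not tested. Of 19 tested immediate early and heat shock genes, 4 were nominally higher, among them the transcription factor genes Egr3 (6.96, 7.21 and 5.95 at 12 months, against 4.49, 5.79 and 4.45 at 9 months) and Egr1 (8.16, 8.62 and 6.99 at 12 months, against 6.43, 7.28 and 6.64 at 9 months). Coq6, an enzyme of coenzyme Q synthesis (6.35, 6.08 and 6.25 at 12 months, against 5.79, 5.63 and 5.55 at 9 months), and Svip (6.42, 6.31 and 6.10 at 12 months, against 5.68, 5.57 and 5.6 at 9 months) were higher by less than 1 but had small spreads.

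Columnar and proliferation lists held few nominal differences. Of 24 tested cell cycle genes and 13 gastric pit genes none was nominal in either direction, with medians of -0.10 and -0.07, and of 16 genes of Wnt signalling and columnar stem cells none was. Lgr5, a receptor that marks columnar stem cells, was at 6.59, 6.74 and 5.85 at 12 months, against 6.35, 6.90 and 7.13 at 9 months. Its second entry on the array, with a lower level, had a difference of 0.15, against -0.40 for the entry used. The tuft cell gene Dclk1 was at 5.85, 5.82 and 5.83 at 12 months, against 6.34, 6.13 and 6.05 at 9 months, and did not overlap, with a difference of -0.34 ± 0.22. Notch1, a receptor of cell fate signalling, was at 8.09, 7.99 and 7.65 at 12 months, against 8.08, 7.92 and 7.47 at 9 months. Of 20 tested interferon response genes, 1 was nominally higher and none lower. The 472 microRNA precursor genes on the array had a mean level of 3.13 at 12 months and 3.23 at 9 months. Both lay below the array medians of 4.05 to 4.10. Among the 179 of them that passed the filter and were tested, 2 were nominally higher and 14 lower, with a median of -0.20. Without replicate 1 at 12 months 5 were lower, without replicate 2 at 12 months 25, without replicate 1 at 9 months 6 and without replicate 3 at 9 months 8. Such probe sets read precursor transcripts and not the mature microRNA.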

How the data were processed

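The deposited values are log2 signals per probe set of 48 arrays. Per the submitters' processing notes, the authors made them by RMA in Affymetrix Expression Console, and the version is not given in the sources used here. The genome build behind the probe sets is not given there either, so gene order from RefSeq (GRCm38.p6) was used only for neighbours. Of 34390 entries, 23521 carried 1 gene symbol and gave 22180 symbols (the entry with the highest overall mean was taken). Entries with more than 1 symbol (1814) or no symbol (9055) were not used. Genes above the array median on at least 3 arrays were tested, 15242 in all. The test was limma 3.58.1 (R 4.3.3) on all 48 arrays at once, with 1 mean per group for 16 groups (32 residual degrees of freedom, two-sided, Benjamini-Hochberg adjustment). Errors beside differences are standard errors from that model, and the number of arrays limits the precision. The fit was tested on simulated data.

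Gene lists, tests and 17 alternatives were written down with earlier results of these data known, and the members were chosen likewise; 3 lists, 5 gene families or loci and 2 alternatives were added after the values were seen. Genes were named by a rule: the 12 smallest p-values in each direction, the 12 widest nominal differences with non-overlapping groups in each direction, 4 members of each list, genes of the study question and sex-linked genes, without predicted genes or microRNAs. Atp12a, Krt16, Krt6a, S100a8, S100a9, Spata18, Ivl, Lor and 2310050C09Rik fell outside it and were chosen after their values were seen. The sex-linked score was Xist minus the mean of 3 Y-linked genes. Replicate numbers name arrays in deposited order.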

Additional observations from a re-analysis of the deposited data

How the results depend on the processing

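No paired analysis was possible because the labels give no replicate numbers or pairing. No gene passed an adjusted p of 0.05 without the filter, with a stricter one, with entries averaged, with the 6 IL8 line arrays alone, the MRI arrays alone, trended robust moderation, cyclic loess or any of the 3 covariates, and array quality weights gave 311. Nominal genes, higher and lower, numbered 982 and 898 with the 6 arrays alone and 1198 and 1202 with weights. With replicate 2 as the only 12-month array they numbered 245 and 258, and 3 genes passed (Bpifa1, Cdhr3 and Spata18). Leaving out each array in turn gave 0 to 2 passing genes, 298 to 639 higher and 365 to 744 lower. The lowest of both came without replicate 1 at 12 months (298 and 365), and the count of higher genes was 340 without replicate 3 at 9 months and that of lower genes 374 without replicate 2 at 9 months. A lone 12-month array was assumed to vary like the other groups. Of the genes named, 7 changed sign somewhere, all with differences that were not nominal. Under the squamous suprabasal covariate, whose genes it removes by construction, these were Sprr3 (-0.34), Krt16 (-1.04), Krt6a (-0.39), Cxcr1 (-0.0501) and Notch1 (-0.25). Krt16 was -0.0154 with cyclic loess and -0.0494 with the hepatocyte covariate; with replicate 2 alone Krt16 was -0.43, Krt6a -0.19 and Cxcr1 -0.0474. S100a8 and S100a9 were 0.30 and 0.37 with the sex-linked covariate, and S100a8 was 0.051 with replicate 1 alone. Leaving out arrays gave -0.22 to 0.27 for Krt16, -0.0173 to 0.50 for Krt6a, -0.37 to 0.11 for S100a8, -0.32 to 0.0499 for S100a9 and -0.0897 to 0.22 for Notch1. The cause of these shifts was not tested.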

Other observations

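Some smaller lists held nominal differences, most of them in genes not yet described. Among 14 tested epithelial antimicrobial genes, 3 were nominally higher at 12 months and none lower. The widest difference of this list, 2.14, was that of Bpifa1, already given with the airway genes and highest in replicate 2 at 12 months. The count was 1 without replicate 2 at 12 months or replicate 3 at 9 months. Slpi, an inhibitor of neutrophil elastase made by surface cells, was at 11.77, 11.70 and 11.37 at 12 months, against 9.91, 10.59 and 9.55 at 9 months. Its difference was 1.60 ± 0.60, with non-overlapping groups. Among 14 tested genes of type 17 and barrier cytokines, 3 were nominally higher and none lower. Without replicate 1 at 12 months 1 was higher and 1 lower, and without replicate 1 or 3 at 9 months 1 was higher and 2 lower. Il17c, the epithelial member of the interleukin-17 family, was at 7.18, 6.11 and 5.20 at 12 months, against 4.34, 4.77 and 4.39 at 9 months. The growth factor gene Ereg was at 7.87, 8.25 and 7.35 at 12 months, against 6.4, 7.47 and 5.81 at 9 months, with an overlap of the ages. A second, dimmer entry of Ereg had a difference of 0.06, against 1.26 for the entry used.

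Of 11 tested tuft cell genes, 2 were nominally lower, Alox5ap and Cd300lf, both of which myeloid cells also express. All 14 tested cholesterol synthesis genes and all 12 tested fatty acid oxidation genes had positive differences, with medians of 0.30 and 0.28, and 1 of each list was nominal.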
